A study of Mus musculus with 33 samples.

Results

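RNA of mouse embryonic stem cells that had been turned towards extraembryonic endoderm was compared with RNA of an established extraembryonic endoderm (XEN) cell line, to see how far the induced cells match the line they are labelled after. The comparison used 6 of the series' 33 poly(A) RNA-seq libraries, 3 labelled RA/CHIR-16d and 3 labelled XEN, and 12540 of the 52631 genes in the deposited table. A gene was kept when it reached 1 FPKM (fragments per kilobase of transcript, scaled to the mapped fragments of the library) in at least 3 of these 6 libraries and did not lie on chromosome X or Y.

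The RA/CHIR-16d cells were embryonic stem cells of strain 129S2/SvPas that were plated on gelatin, given 10 µM all-trans retinoic acid (atRA) together with 5 µM CHIR for 10 days in DMEM with 15% serum, and then kept for 6 days with 10% serum and no inducer. CHIR commonly stands for a compound that blocks the kinase GSK3 and so activates Wnt/beta-catenin signalling. The labels call the product ES-derived XEN-like cells. The XEN libraries carry the same strain label, a control treatment label and growth in DMEM with 15% serum. The undifferentiated stem cells (mES), used below only as a reference level, grew on mitomycin-inactivated embryonic fibroblasts with LIF. Each group represents 1 line or 1 course of induction, and the labels do not say whether its 3 replicates were separate cultures. The p-values then measure the spread between these samples, which may be technical. Serum share, line of origin and inducer history all differ between the groups and cannot be told apart.

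Extraembryonic endoderm is the lineage that forms beside the epiblast in the blastocyst. Its first form, primitive endoderm, is governed by the transcription factors GATA6, GATA4, SOX17 and SOX7, and gives rise to parietal endoderm, which lays down the thick basement membrane called Reichert's membrane, and to visceral endoderm, a polarised epithelium that takes up maternal nutrients and secretes serum proteins such as alpha-fetoprotein. XEN lines are stem cell lines of this lineage and are usually described as resembling parietal endoderm more than visceral endoderm in culture.

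Library sums of FPKM lay between 669470 and 677078 in RA/CHIR-16d and between 684318 and 757362 in XEN, and 13037 to 13086 and 11573 to 11584 genes reached 1 FPKM. Counts were not used here, so the depth behind each value is unknown. Pearson's r over genes on the log2 scale lay between 0.989 and 0.991 among XEN libraries, between 0.984 and 0.985 among RA/CHIR-16d libraries, and between 0.816 and 0.818 for RA/CHIR-16d libraries with XEN. As descriptions of the same kind, r with XEN was 0.776 to 0.778 for mES and 0.853 to 0.855 at day 7 of RA/CHIR. It was 0.848 at day 4 and 0.847 to 0.848 at day 10 of RA/CHIR. For cells given retinoic acid without CHIR and taken at day 16 (RA-16d) it was 0.787 to 0.790. Earlier in that arm it was 0.854 to 0.858 at day 4, 0.845 to 0.846 at day 7 and 0.817 to 0.820 at day 10. All these values use the genes kept for RA/CHIR-16d and XEN, so genes expressed only in other groups are left out. The lines also differed in sex-chromosome transcripts, which are outside the comparison: Xist, the RNA of the inactive X, was at 0.537, 2.68 and 1.30 FPKM in RA/CHIR-16d and 89.4, 104.7 and 99.4 in XEN, while Eif2s3y, a gene on Y, was at 50.6, 55.7 and 58.6 against 0 in every XEN library.

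Differences below are RA/CHIR-16d minus XEN on the log2(FPKM + 1) scale, which understates the change of low genes, with the standard error (SE) and the Benjamini-Hochberg adjusted p of a limma model of all 33 libraries (2-sided, n = 3 and 3). A gene was called when the adjusted p was under 0.05 and the difference was at least 1. In bulk RNA, fewer cells of a type and less RNA per cell cannot be told apart. By this rule 3530 genes (28.1% of those tested) were called, 2174 higher (17.3%) and 1356 lower (10.8%) in RA/CHIR-16d. For 7407 genes (59.1%) the 95% interval of the difference lay within 1 in either direction. The median difference over all genes was 0.03. The 3 induced and 3 XEN libraries did not overlap for 9297 genes (74.1%), so a lack of overlap is the usual case. Group levels below are means ± SD of 3 libraries, and differences are given ± SE. Higher calls made up 61.6% of calls, but 49.1% (1023 higher and 1060 lower) among genes with a mean of at least 5 FPKM. Of the tested genes, 1304 passed the filter on low values through the RA/CHIR-16d libraries alone, 1183 of them called, and 233 through XEN alone, 176 of them called, so these had to differ. The other 11003 genes gave 2171 calls, 991 higher and 1180 lower. Counts below for list members that passed otherwise are to be read beside these, not beside the shares over all genes tested.

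**Figure D1:**
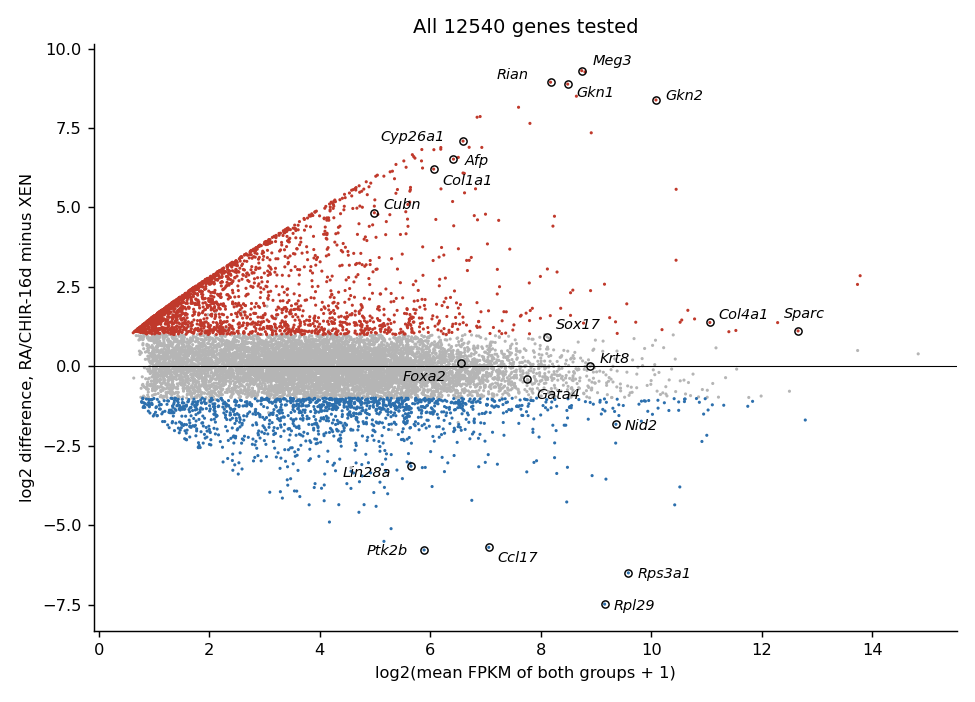
Each point is 1 of the 12540 genes tested, by its log2 mean FPKM over both groups (plus 1) and its log2 difference between RA/CHIR-16d and XEN, with called genes in red (higher) and blue (lower). Gata4, Foxa2 and Krt8 lie near 0, Meg3, Rian and Gkn1 near a difference of 9, and Rps3a1 and Ptk2b below -5.

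The transcription factors that define the lineage were present in both cell types, and Gata4 was somewhat lower and Gata6 higher in the induced cells. Gata4 was at 195, 183 and 176 FPKM in RA/CHIR-16d and 247, 248 and 243 in XEN, a difference of -0.41 ± 0.10 (SE, adjusted p = 6.13e-04) that is below the size needed for a call. Foxa2, a forkhead factor of all endoderm, was at 95.4, 92.9 and 97.9 FPKM against 94.3, 79.6 and 95.1, with overlapping libraries and a 95% interval from -0.07 to 0.26. Gata6, which stands at the top of the primitive endoderm programme, was higher, at 144, 140.1 and 132 against 41.2, 44.7 and 44.5 FPKM (1.65 ± 0.085, adjusted p = 1.07e-15). Both GATA factors thus stood well above the mES means of 10.1 and 9.54 FPKM.

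Sox17, an HMG-box factor needed for endoderm, was at 403, 337 and 345 FPKM against 207, 186 and 174. Every induced library exceeded every XEN library, and the difference of 0.93 ± 0.144 was just under a call; it passed with TMM-type scaling (1.01) and quantile normalization (1.15). Sox7, its relative in primitive and parietal endoderm, was the lower of the pair in the induced cells, at 6.94, 5.21 and 5.27 against 12.1, 12.9 and 11.5 FPKM (-0.96 ± 0.121), and was called without RA/CHIR-16d replicate 1. Gata4 and Sox7 lie on chromosome 14, where the median gene was lower (described below). Of the 14 tested transcription factors on the primitive endoderm list, 6 were called higher and 1 lower, with a median difference of 0.89 against 0.03 over all genes. The 4 others on the list were on X or under the filter. Of the 6 higher, 3 passed the filter through the induced libraries alone. Tfec, a relative of the lysosomal regulator TFEB, was the lower one, at 2.66, 3.67 and 2.03 against 13, 12.1 and 14.7 FPKM (-1.93 ± 0.205). Foxa3, Klf5 and the epithelial factor Elf3 were higher, with differences of 2.26, 2.05 and 2.02, while Hnf4a, a nuclear receptor of visceral endoderm and liver, was at 21.1, 21 and 16 against 10.1, 13.7 and 16.1 FPKM and not called (adjusted p = 0.0557).

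All 20 genes of a list of XEN line markers passed the filter, and 12 were called higher and none lower in the induced cells, with a median difference of 1.27. Summed FPKM of the list was 23093 to 23918 in RA/CHIR-16d and 9856 to 10340 in XEN. Pdgfra, the receptor whose surface protein marks primitive endoderm, was at 95.9, 99.5 and 98.6 FPKM against 33.4, 32.1 and 30.3 (1.59 ± 0.085, adjusted p = 2.86e-15), and Dab2, an endocytic adaptor, at 251, 245 and 241 against 75.2, 81.2 and 66.4 (1.72 ± 0.132). The simple keratins showed no call. Krt8 was at 468, 471 and 478 FPKM against 480.2, 437 and 507, with overlapping libraries and an interval from -0.26 to 0.25. It is one of the genes with near-identical copies described below. Its partner Krt18 was lower by a difference of -0.47 ± 0.064. With quantile normalization, without RA/CHIR-16d replicate 1, or with a pseudocount of 0.1, 1 marker was called lower.

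**Figure D2:**
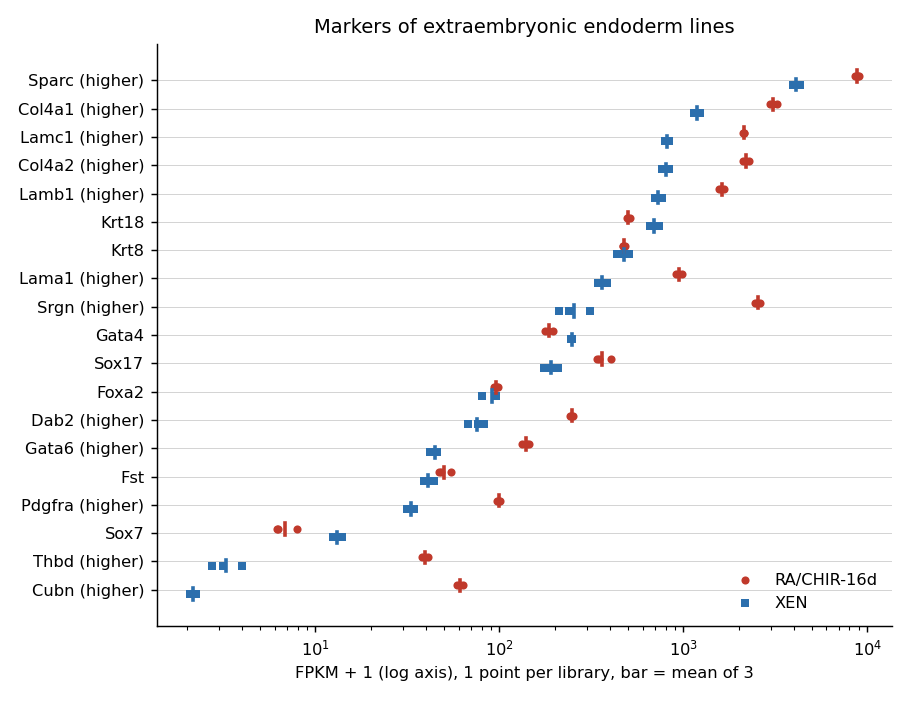
FPKM + 1 on a log axis of 19 of the 20 XEN line markers, with 1 red circle per RA/CHIR-16d library, 1 blue square per XEN library and a bar at each mean of 3; genes called higher are named so. The induced libraries lie at or to the right of XEN for most markers, with Gata4, Sox7 and Krt18 to the left.

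Basement membrane genes, the main product of parietal endoderm, were higher for the central chains, and the nidogen pair moved in opposite directions. Lama1, Lamb1 and Lamc1, the chains of laminin-111, differed by 1.40 ± 0.054, 1.15 ± 0.048 and 1.39 ± 0.066. Lama1, for one, was at 977, 952 and 909 FPKM against 381, 353 and 341. Col4a1 and Col4a2, the type IV collagen chains that share a divergent promoter, were at 3218, 3063 and 2954 against 1237, 1176 and 1135 and at 2287, 2188 and 2111 against 834, 799.8 and 765 FPKM, differences of 1.38 ± 0.070 and 1.46 ± 0.069. Levels of the induced group were thus more than those of XEN in each library for all 5 chains. Sparc, a collagen-binding matrix protein, reached 8861, 9018 and 8564 FPKM against 3979.6, 3945 and 4302 (1.11 ± 0.071), which fell to 0.69 and out of the calls under quantile normalization.

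Nid1, a linker of laminin and type IV collagen, was at 168, 161 and 159.9 FPKM against 6.30, 5.86 and 7.93 (4.42 ± 0.110, adjusted p = 1.37e-22). Its paralogue Nid2, on chromosome 14, went the other way, at 285, 289 and 289 against 1076, 1019 and 971 FPKM (-1.82 ± 0.049, adjusted p = 9.66e-22). Hspg2, the heparan sulfate proteoglycan perlecan, did not differ beyond an interval of -0.18 to 0.15. In all, 11 of 23 tested basement membrane genes were called higher, 4 of them through the induced libraries alone, and 2 lower. Among 15 tested surface and secreted genes of parietal endoderm, 9 were higher and none lower. Gkn2 is 1 of the 9 and is counted again on the brush border and gut epithelium list below. Thbd, the anticoagulant receptor thrombomodulin, was at 39.7, 36.7 and 38.5 FPKM against 2.96, 2.15 and 1.73 (3.60 ± 0.166), and Srgn, the proteoglycan serglycin, at 2455, 2527 and 2625 against 211, 239 and 308 (3.34 ± 0.233).

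Of 16 tested serum protein genes of visceral endoderm, 14 were called higher and none lower. Of the 14, 12 passed the filter through the induced libraries alone and so had to differ, and among the other 4 tested genes 2 were higher. In all, 11 of all 25 on the list were listed at 0 in every XEN library. The summed FPKM of the 25 was 943 to 1016 in RA/CHIR-16d and 189 to 283 in XEN. Afp, the serum carrier of the yolk sac and fetal liver, was at 164, 171 and 169 FPKM against 0.724, 0.524 and 1.38 (6.52 ± 0.276, adjusted p = 1.67e-17). Ttr, a thyroxine carrier, was at 167, 176 and 159.6 against 11.2, 8.48 and 17.8 (3.70 ± 0.166). Fgb, the fibrinogen beta chain, was at 110.2, 115 and 113 FPKM, and at 0.0231, 0 and 0 in XEN (adjusted p = 2.42e-30). Rbp4, the plasma retinol carrier, was already at 182, 175 and 259 in XEN and at 355, 387 and 365 in the induced cells, a difference of 0.86 ± 0.158 that was not called.

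Apolipoprotein and lipid handling genes gave 12 higher and 4 lower of 23 tested. Of the 12, 6 passed the filter through the induced libraries alone, and the other 17 tested genes gave 6 higher and 4 lower. Apoa1, the main protein of HDL, was at 176, 182 and 179 FPKM against 0.815, 0.552 and 1.39 (6.57 ± 0.162), and Apoa4, its neighbour on chromosome 9, at 52.6, 50.2 and 52.9 against 0.0496, 0.222 and 0.224 (5.51 ± 0.131). Fabp1, the liver fatty acid binding protein, was at 74.4, 93.4 and 75.5 and listed at 0 in all XEN libraries. Apoe was abundant in both, at 1121, 1069 and 1160.4 against 699.7, 689 and 898 FPKM, and not called (0.56 ± 0.091). Scarb1, the HDL receptor, was lower in the induced cells, at 6.7, 6.54 and 7.5 against 44.2, 38.5 and 41.2 (-2.42 ± 0.117). Fabp5 was also lower (-2.78 ± 0.096), and is one of the genes with near-identical copies described below.

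Afp, Apoa1 and Ttr were still low on day 10 of the course. Afp was at 0.786 ± 0.568 FPKM at day 10 (SD, n = 3), Apoa1 at 0.949 ± 0.249 and Ttr at 2.15 ± 0.637. At day 16 with retinoic acid alone the same genes stood at 4.79 ± 0.525, 3.25 ± 0.294 and 8.49 ± 0.906 FPKM. The high levels were thus seen after day 10, when the inducers had been withdrawn and serum lowered, changes that cannot be told apart from time.

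Of 26 tested endocytic receptor and lysosome genes, 7 were higher and none lower, with 17 intervals within 1. Cubn, the cubilin receptor for vitamin and protein uptake, was at 62.6, 60.3 and 57.8 FPKM against 1.09, 1.13 and 1.24 (4.83 ± 0.129), with its anchor Amn at 20.6, 18.4 and 18.1 against 0.258, 0 and 0.291 (4.09 ± 0.204) and its partner Lrp2 (megalin) at 16.3, 16.5 and 17.7 against 2.20, 2.72 and 2.12 (2.42 ± 0.138). Amn passed the filter through the induced libraries alone and so had to differ, which leaves Cubn and Lrp2 as the parts of the complex free to differ or not. The 25 tested genes of the list that passed otherwise gave 6 higher and none lower. Ctsl, a lysosomal cathepsin, was at 4026, 4055 and 4064 against 1736, 1784 and 2053 FPKM (1.13 ± 0.087), while the lysosomal membrane protein Lamp1 differed by 0.82 ± 0.040 and was not called.

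Brush border and gut epithelium genes gave 23 of 26 tested members higher, 12 of which passed the filter through the induced libraries alone, and 2 lower, with a summed FPKM of 5035 to 5232 against 426 to 497. Gkn2 and Gkn1, secreted gastrokines of the stomach lining that lie side by side on chromosome 6, carried much of this sum. Gkn2 was at 2094, 2164 and 2225 FPKM against 2.79, 5.82 and 9.56 (8.38 ± 0.266), and Gkn1 at 698, 721 and 724 against 0.355, 0.625 and 0.590 (8.88 ± 0.121). Both were at or under 0.126 FPKM on average at day 10, and at 100.3 ± 6.36 and 40.7 ± 3.41 in RA-16d. Tspan8, a tetraspanin of gut epithelium, was at 251, 271 and 269 against 31.2, 27.7 and 34.2 FPKM, and Lgals4, a gut galectin, at 78.9, 94.6 and 96.2 against 2.24, 1.79 and 2.34. Zg16, a lectin of goblet cells, was at 44.8, 52.6 and 47.8 and Cdhr5, a microvillus cadherin, at 4.83, 5.38 and 4.74 FPKM, both listed at 0 in every XEN library. Dpp4, a brush border peptidase, was one of the lower pair, at 13.2, 12.7 and 13.4 against 33.3, 33.2 and 27.7 (-1.20 ± 0.102). Of 15 regulators of liver, pancreas and lung, 12 stayed under the filter, with Nkx2-1, Ptf1a and Neurog3 at 0 in all 6 libraries. The summed FPKM of the 15 was 19 to 28.3 against 5.03 to 10.0. Cebpb, a basic leucine zipper factor of many tissues, was the one called, at 18.6, 17.3 and 11.4 against 4.93, 6.66 and 2.13 FPKM (1.66 ± 0.308).

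**Figure D3:**
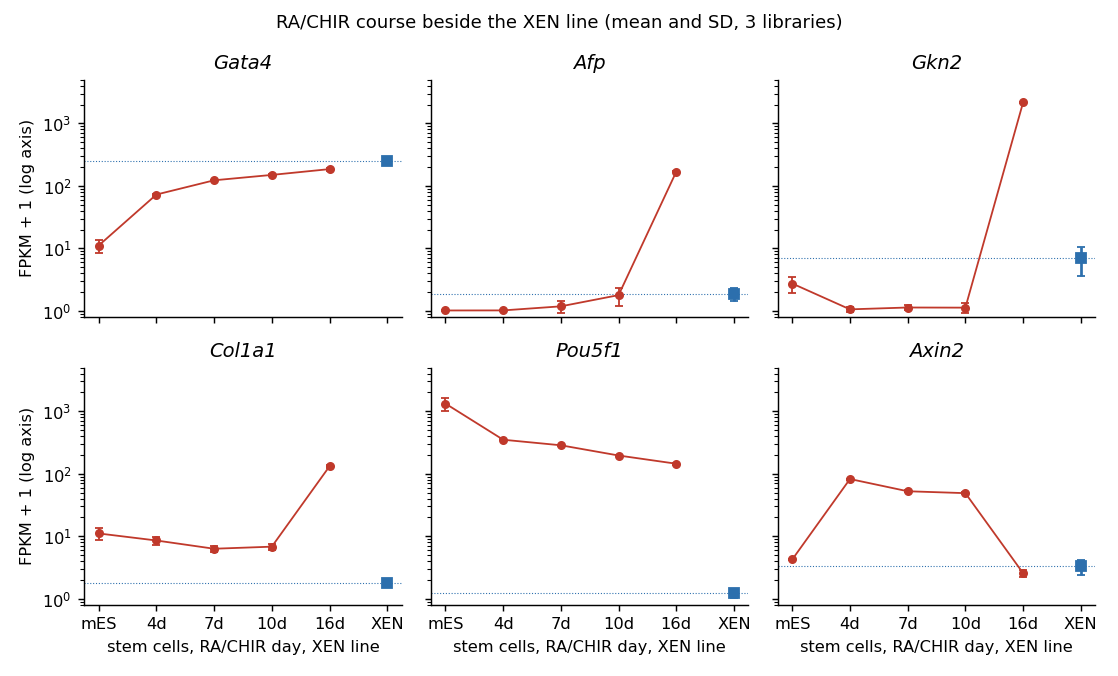
Mean FPKM + 1 on a log axis with SD (n = 3 libraries) for 6 genes in stem cells, at days 4, 7, 10 and 16 of RA/CHIR (red) and in XEN (blue, dotted line at its mean). Gata4 was higher at each later time and stayed under XEN, Afp, Gkn2 and Col1a1 reached their day 16 levels after day 10, Pou5f1 stayed above XEN throughout, and Axin2 returned to the XEN level at day 16.

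Among targets of the inducers, 9 of 17 tested retinoid genes were called higher and none lower, and 3 of 17 Wnt targets higher and 4 lower. Cyp26a1, the retinoic acid hydroxylase, was at 194, 185 and 192 FPKM against 0.601, 0.462 and 0.192 (7.09 ± 0.120, adjusted p = 4.03e-26), down from a mean of 1376 ± 22.9 at day 10. Of the 9 higher retinoid genes, 6 passed the filter through the induced libraries alone. Rdh10, a retinol dehydrogenase, and Crabp2, a binding protein, differed by 2.59 ± 0.095 and 2.25 ± 0.128. Stra6, the retinol transporter, overlapped between groups, at 38.7, 31.7 and 37.5 against 37.5, 39.7 and 36.4 FPKM, and Rarb was at 4.31, 2.91 and 2.13 against 4.68, 4.07 and 4.55.
The Cyp26a1 promoter is shown because it holds a direct repeat bound by retinoic acid receptors. It is the 250 bases before to the 50 after the start site, at chr19:37697558-37697857 (plus strand, RefSeq, GRCm38.p6), and the repeat in capitals begins at -32.
Cyp26a1: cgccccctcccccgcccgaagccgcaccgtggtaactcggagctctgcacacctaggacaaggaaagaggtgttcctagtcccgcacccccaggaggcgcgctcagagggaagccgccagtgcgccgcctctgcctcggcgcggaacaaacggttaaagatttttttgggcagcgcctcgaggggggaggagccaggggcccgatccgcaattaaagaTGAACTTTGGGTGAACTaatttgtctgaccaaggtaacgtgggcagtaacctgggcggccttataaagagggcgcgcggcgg
The letters searched, AGTTCA given again after a spacer of 5 bases, on either strand, were found in 8 of 32851 promoters (0.0244%).

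Axin2, a feedback inhibitor and general target of Wnt signalling, was at 1.93, 1.37 and 1.4 FPKM against 2.76, 2.92 and 1.31, with overlapping libraries, after 47.9 ± 1.59 at day 10. Nkd1, another feedback inhibitor, was at 3.17, 4.36 and 4.27 against 2.4, 1.5 and 1.4, after 105 ± 3.05 at day 10. Neither difference was called. The 3 higher Wnt targets passed the filter through the induced libraries alone. Wnt11 and Rnf43 were among the lower ones (-1.94 ± 0.138 and -1.36 ± 0.197). Wnt11 is one of the genes with near-identical copies described below, and without such genes the list gave 3 higher and 3 lower. Dkk1, a secreted Wnt antagonist, was at 11.3, 12.9 and 9.96 FPKM against 0.683, 0.425 and 0.732 (2.94 ± 0.162). With quantile normalization or a pseudocount of 0.1, 7 members were lower. T (brachyury), a mesoderm target, was at 0 in all 6 libraries and not tested.

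Of 27 tested pluripotency genes, 19 were called higher and 2 lower in the induced cells. Of the 19, 13 passed the filter through the induced libraries alone and so had to differ. The list summed to 1467 to 1520 FPKM against 252 to 263. Pou5f1, which encodes OCT4, was at 139, 142 and 149 FPKM against 0, 0.279 and 0.434 (6.88 ± 0.290, adjusted p = 1.44e-17), and at 1326 ± 332 in mES. Zfp42 (REX1) was at 28.0, 26.4 and 27.3 against 0, 0.168 and 0, with 451 ± 11.3 in mES. Sox2 and Nanog were low, at means of 3.07 and 3.27 FPKM against 223 and 377 in mES. Dppa5a stood highest, at 780.0, 795 and 814 FPKM against 1.70, 0.852 and 1.13. The means of Nanog, Dppa5a and Zfp42 had been lower at day 10, at 0.233, 163 and 14 FPKM, and that of Pou5f1 higher, at 195. Nanog and Dppa5a have near-identical copies, and without such genes the list gave 13 higher and 2 lower. The lower pair was Lin28a and Lin28b, the RNA-binding proteins that block let-7 processing. Lin28a was at 7.73, 10.9 and 9.13 against 92.6, 92.4 and 82.3 (-3.14 ± 0.122). Lin28b (-1.83 ± 0.090) passed the filter through XEN alone and so had to differ. The 13 tested genes of the list that passed otherwise gave 6 higher and 1 lower. Whether the pluripotency transcripts came from a share of undifferentiated cells was not tested.

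Fibroblast matrix genes, which would mark mesenchymal cells, were higher for 21 of 23 tested, 17 of which passed the filter through the induced libraries alone, and lower for 1. The 29 genes summed to 862 to 920 FPKM against 535 to 576. Col1a1, the chain of fibrillar type I collagen, was at 139, 130.3 and 123 FPKM against 0.868, 0.729 and 0.747 (6.21 ± 0.144), and Col3a1 at 109, 102 and 99.5 against 0.0770, 0.166 and 0.0969 (6.55 ± 0.197). In the smooth muscle line (SMC) the same genes stood at 3487 ± 118 and 1613 ± 40.0, in RA-16d at 773 ± 223 and 671 ± 114, and at day 10 at 5.81 ± 0.775 and 4.41 ± 0.899. Thy1, a surface protein of fibroblasts, was at 20.7, 16.8 and 19.7 against 0, 0.0576 and 0 FPKM. Smooth muscle contractile genes gave 4 higher, 3 of them through the induced libraries alone, and 1 lower of 19. Acta2, smooth muscle actin, was at 191, 188 and 188 against 199.8, 182 and 88.0 FPKM and not called, far from the 11435 ± 138 of SMC. Their part in the differences was not tested.

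Of 27 tested epithelial junction and keratin genes 15 were higher, 9 of which passed the filter through the induced libraries alone, and 2 were lower. Cdh1, the epithelial cadherin, was at 97.9, 89.2 and 87.0 FPKM against 3.34, 2.69 and 2.22 (4.63 ± 0.092, adjusted p = 1.00e-24). Cldn6 was at 107, 108 and 122 against 0.230, 0.517 and 0.128 (6.46 ± 0.088), and Cldn7 and Epcam differed by 5.98 ± 0.118 and 3.33 ± 0.075. The lower pair encode desmosomal proteins. Pkp2, a plakophilin, was at 9.83, 10.3 and 10.3 against 52.2, 50.4 and 46.3 FPKM (-2.18 ± 0.085), and Dsp (desmoplakin) at 11.3, 9.55 and 10.7 against 23.7, 23.5 and 19.8 (-1.02 ± 0.096, not called with TMM-type scaling, nor without RA/CHIR-16d replicate 2, XEN replicate 1 or XEN replicate 2). Other desmosomal genes of the list were higher, as Pkp3 at 17.7, 16.6 and 14 FPKM and listed at 0 in XEN, and Dsc2, a desmosomal cadherin, at 14, 14.8 and 14.9 against 0.123, 0.144 and 0. Of 14 mesenchymal transition genes 7 were higher, 5 of which passed the filter through the induced libraries alone, and 4 were lower. The other 9 tested gave 2 higher and 4 lower. Cdh2, the neural cadherin, was lower (-1.18 ± 0.103), as was Vim (-1.05 ± 0.056, not called with TMM-type scaling or quantile normalization), while Snai1, a repressor of Cdh1, was higher at 104, 99.1 and 101 against 14.5, 10.2 and 15.1 FPKM (2.86 ± 0.155).

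Imprinted loci held some of the widest gaps of the comparison, with 15 of 28 tested imprinted genes higher and 6 lower. Of the 15, 12 passed the filter through the induced libraries alone and so had to differ. The other 16 tested genes gave 3 higher and 6 lower, beside 991 higher and 1180 lower of all 11003 genes that passed otherwise. Meg3, Rian and Igf2 passed through the induced libraries alone. The noncoding RNAs of the Dlk1-Meg3 domain on chromosome 12 were almost undetected in XEN. Meg3 was at 850.2, 845 and 861 FPKM against 0.499, 0.236 and 0.328 (9.30 ± 0.071, adjusted p = 1.29e-33) and Rian at 572, 566 and 589 against 0.107, 0.406 and 0.0406 (8.94 ± 0.094). Meg3 was present in the other groups too, at 122 ± 16.5 in mES, 982 ± 29.9 in RA-16d and 752 ± 40.6 in SMC, so XEN was the lowest of these groups. Igf2, a fetal growth factor, was at 378, 400.1 and 375 against 0.193, 0.471 and 0.419 (8.15 ± 0.080), with its neighbour H19 at 232, 247 and 252 against 15.9, 16.8 and 15.2 (3.85 ± 0.075). Cdkn1c, a growth-restraining inhibitor of cyclin-dependent kinases, was at 36.1, 31.7 and 39.8 against 0.0779, 0.0692 and 0.0877 (5.09 ± 0.095), and Peg10 differed by 3.76 ± 0.088. Gnas was among the lower genes, at 344, 355 and 339 against 729, 712 and 745 (-1.07 ± 0.040).

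Other growth factor genes also differed. Igf1 was at 287, 279 and 299 FPKM against 9.21, 10.5 and 13.7 (4.59 ± 0.230), and the binding proteins Igfbp4 and Igfbp5 differed by 5.56 ± 0.087 and 4.67 ± 0.066, while their receptor Igf1r was lower, at 3.13, 3.47 and 2.15 against 10.4, 10.7 and 9.29 (-1.52 ± 0.150). Of 17 genes of the pathway 8 were higher, 4 of which passed the filter through the induced libraries alone, and 3 were lower. In the PDGF and FGF list (9 higher and 4 lower of 21), Pdgfd, a ligand, was lower at 3.44, 2.67 and 2.82 against 22.9, 24.6 and 22.3 (-2.61 ± 0.108), as was Dusp4, a phosphatase of ERK (-2.27 ± 0.115). In the BMP and TGF-beta list (8 higher and 6 lower of 27), Bmp4, on chromosome 14, was at 1.05, 1.06 and 0.880 against 14.1, 11.4 and 14.6 (-2.84 ± 0.127). Of the 8 higher in that list, 6 passed the filter through the induced libraries alone. Its other 21 tested members gave 2 higher and 6 lower. In the PDGF and FGF list 3 of the 9 higher passed through the induced libraries alone.

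Proliferation genes were lower in part. Of 31 tested DNA replication and mitosis genes 10 were lower and none higher, with a median difference of -0.74, and the list summed to 1165 to 1192 FPKM against 2098 to 2248. Birc5 (survivin), a mitotic regulator, was at 45.6, 49.0 and 53.3 FPKM against 169.9, 163 and 179 (-1.77 ± 0.117). Mki67, the usual proliferation marker, was at 11.7, 12.8 and 11.5 against 14.6, 14.7 and 14.9 and not called (-0.28 ± 0.064), and Mcm2, a helicase subunit, differed by -0.74 ± 0.053. Fewer genes passed without members that have copies (8 lower), and 7 with quantile normalization.

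Redox, immune and early response genes were higher more often than lower. Of 30 glutathione and detoxification genes 13 were higher, 7 of which passed the filter through the induced libraries alone, and 1 was lower. Gpx3 was 1 of these 7. Without genes that have near-identical copies, described below, the list gave 10 higher and none lower. Gpx3, a secreted peroxidase, was at 878, 905 and 882 FPKM against 0.249, 0.389 and 0.749 (9.26 ± 0.093) and Mgst2, a microsomal transferase, at 241, 239 and 242 against 1.60, 0.297 and 1.52 (6.89 ± 0.247). The interferon response list gave 13 higher, 5 of them through the induced libraries alone, and 3 lower of 21. Isg15, a ubiquitin-like modifier, was at 24.7, 28.2 and 25.3 against 0.907, 2.37 and 1.58 (3.41 ± 0.208), but Cxcl10, a chemokine of the same response, was lower at 1.20, 3.18 and 2.16 against 44.6, 41.2 and 43.4 (-3.84 ± 0.200). MHC class I presentation genes gave 8 higher, 4 of them through the induced libraries alone, and none lower of 14. B2m, the light chain, was at 864, 912 and 922 against 279.9, 305 and 351 (1.53 ± 0.096). Immediate early genes gave 12 higher, 2 of them through the induced libraries alone, and none lower of 17. Fosb, an AP-1 subunit, was at 33, 31.1 and 30.9 FPKM against 0.569, 0.805 and 0.358 (4.38 ± 0.326), and at 0.146 ± 0.117 at day 10 and 33.2 ± 8.87 in mES.

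Metabolic lists were mixed. Cholesterol synthesis gave 2 higher and 5 lower of 22, the integrated stress and unfolded protein response 3 higher and 7 lower of 23, and glycolysis and hypoxia 9 higher and 5 lower of 25. Without genes that have near-identical copies, described below, cholesterol synthesis gave 1 higher and 3 lower. The stress list then gave 3 higher and 6 lower, and glycolysis and hypoxia 8 higher and 3 lower. Insig1, a brake on sterol synthesis and one of the genes with such copies, was at 179.6, 183 and 189.7 against 61.1, 54.6 and 50.8 FPKM (1.72 ± 0.128). Ndrg1, a hypoxia-responsive gene, was at 92.7, 92 and 89.1 against 14, 12.6 and 13.5 (2.68 ± 0.165). Chac1, a target of ATF4, was lower at 1.05, 1.69 and 1.15 against 10.0, 9.54 and 9.68 (-2.24 ± 0.163). Mitochondrially encoded subunits gave 3 higher of 12, and mt-Nd1 was at 7147, 6915 and 7528 against 2580.2, 3032 and 2725 (1.37 ± 0.068). With quantile normalization 5 of the 12 were higher.

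**Figure D4:**
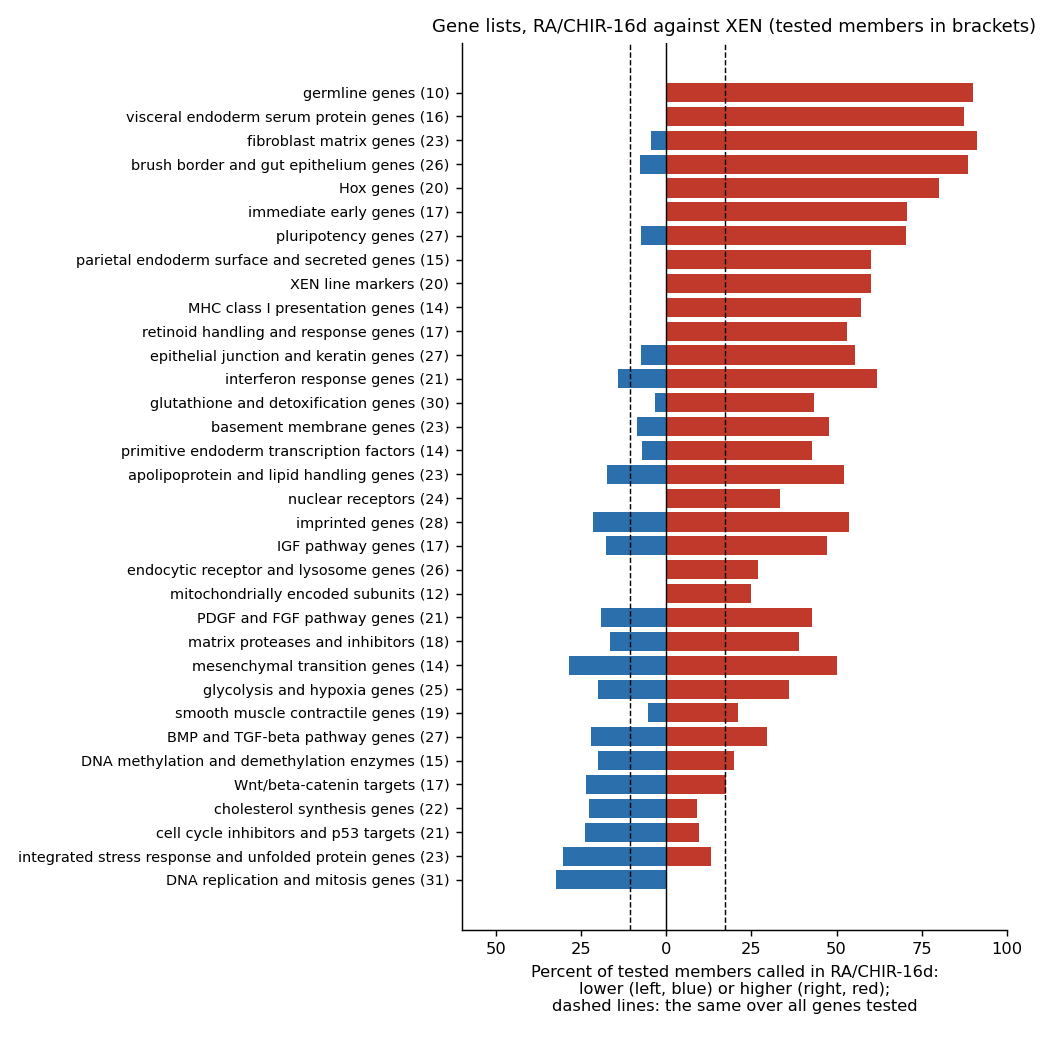
Share of tested members (number in brackets) called higher to the right in red and lower to the left in blue, for each list with at least 10 tested members. Dashed lines mark the shares over all genes tested, 17.3% higher and 10.8% lower. Fibroblast matrix, germline, brush border and serum protein genes lie furthest to the right, and DNA replication genes furthest to the left. Bars and lines include genes that passed the filter through 1 group alone and so had to differ. Through the induced libraries alone passed 17 of 21 higher fibroblast matrix, 9 of 9 germline, 12 of 23 brush border and 12 of 14 serum protein genes. Over all genes tested these were 1183 of the 2174 higher.

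Lists of other cell types were measured in the same way. Of 39 autosomal Hox genes 20 were tested, and 16 were higher, 14 of them genes that passed through the induced libraries alone, and none lower, at low levels (summed FPKM 80.4 to 83.7 against 17.5 to 18.8). Hoxb2 was at 3.49, 5.46 and 5.18 FPKM and listed at 0 in XEN, down from 10.3 ± 0.772 at day 10. Of 22 trophoblast markers 6 were tested and 4 were higher, with sums of 77.0 to 83.6 against 35.2 to 43.0 FPKM. Cdx2, a trophoblast and hindgut factor, was at 2.69, 3.06 and 2.28 FPKM and listed at 0 in XEN, while Gcm1 and Synb were at 0 in all 6 libraries. Of 18 neural markers 6 were tested and 5 higher (18.1 to 21.3 against 4.00 to 6.06), with Olig2 at 0 throughout. Of these 5, 4 passed the filter through the induced libraries alone, as did 1 of the 4 higher trophoblast markers. Cardiac markers gave 3 higher and 2 lower of 9, and mesothelial ones 1 higher and 3 lower of 5. Endothelial and blood ones gave none higher and 2 lower of 7, with the globins Hba-a1 and Hbb-y at 0 in all 6. The 2 lower cardiac and 3 lower mesothelial markers passed the filter through XEN alone and so had to differ. So did 1 of the 2 lower endothelial and blood markers. Of the 3 higher cardiac markers, 1 passed through the induced libraries alone. Germline genes gave 9 higher of 10 tested out of 22, all 9 through the induced libraries alone (56.4 to 66.9 against 3.46 to 7.86), with Stk31 at 2.94, 3.19 and 4.30 FPKM and listed at 0 in XEN. The part of such cells in the differences was not tested.

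Among the lowest genes named by rule were several for surface and secreted proteins. Ptk2b, a focal adhesion kinase on chromosome 14, was at 0.891, 1.24 and 1.23 FPKM against 117, 118 and 111 (-5.78 ± 0.131, adjusted p = 1.91e-23). Ccl17, a chemokine, was at 3.04, 5.04 and 4.13 against 263, 225 and 292 (-5.70 ± 0.410). Scube3, a secreted glycoprotein, was at 0.431, 0.0572 and 0.0452 against 36.2, 35.1 and 30.5 (-4.90 ± 0.159). Scube3 passed the filter through XEN alone and so had to differ. Mcam, Ptprb and Cd93, surface proteins best known from endothelium, differed by -4.41 ± 0.140, -4.36 ± 0.089 and -4.15 ± 0.066, and Tnnt2, the cardiac troponin T, by -4.23 ± 0.130. Car4, a membrane carbonic anhydrase, was at 9.78, 10.8 and 9.22 against 217, 216 and 177 (-4.22 ± 0.159) and had been at 71.0 ± 6.13 at day 10. Among genes over 100 FPKM in both groups, 581 of 779 had an interval within 1, and those closest to no difference were Atpif1, Mlec, Raly, Ociad1 and Fuca1.

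Of the 2174 genes called higher, 421 had a mean under 1 FPKM at day 10 of RA/CHIR, 670 in mES and 334 in RA-16d, and 536 were at or above their day 16 level at day 10. For the 188 higher by at least 4 on the log2 scale these counts were 23, 45, 9 and 36. The earlier groups were set against the same XEN libraries, so their calls are not independent. They numbered 3461 (27.5%) at day 4, 3198 (25.6%) at day 7 and 3378 (27.0%) at day 10, with 4276 (32.8%) for RA-16d and 5089 (39.7%) for mES.

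Ribosomal protein genes were lower in part, and many have near-identical copies. This list was added after its values had been seen. Of 78 tested, 42 were lower and 2 higher, with a median difference of -1.02. The median member was at 539 to 547 FPKM in RA/CHIR-16d libraries, 1081 to 1313 in XEN, 1081 to 1155 at day 10 and 1256 to 1628 in mES. With TMM-type scaling 32 and with quantile normalization 20 were lower. The 6 members with no near-identical copy gave 4 lower and 1 higher (median -1.04). Rps3a1 was at 14, 17.3 and 15.9 FPKM against 1456, 1387 and 1706, but Rps3a2, a copy on chromosome 14, was at 573, 590.3 and 587 against 20.9, 18.4 and 24.7. Rpl34 and its pseudogene Rpl34-ps1 showed the same exchange. Rpl34 was at 114, 131 and 130.5 FPKM against 2643, 2124 and 3082, and Rpl34-ps1 at 2589, 2656 and 2957 against 59.8, 43.7 and 69.0. Summed over the family the levels were 2865 ± 199 and 2676 ± 494 FPKM, a log2 difference of 0.11.

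The transcripts of Rpl34 (chr3:130726831-130730398, GRCm38) and Rpl34-ps1 (chr6:71124610-71124963) differ at 2 of 354 aligned bases, 99.4% identity. A window of 60 bases, taken from GENCODE M21 transcripts, is shown because it holds 1 of the 2 differing bases, given in capitals.
Rpl34: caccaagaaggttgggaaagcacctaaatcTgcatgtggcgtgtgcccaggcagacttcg
Rpl34-ps1: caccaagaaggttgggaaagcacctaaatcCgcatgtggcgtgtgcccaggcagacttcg

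Over 92 gene families with near-identical copies, the parent gene held a median of 89.0% of the family's FPKM in RA/CHIR-16d and 93.6% in XEN. In 19 families the parent's share was lower by at least 20 points in RA/CHIR-16d, and in none higher. For Rps3a1 the share was 1.91% against 98.1%, for Rpl34 4.37% against 97.8% and for Rpl3 12.8% against 91.5%. The SMC libraries resembled XEN in this respect, with 1 family lower and 3 higher. The stem cells and the other induced groups resembled RA/CHIR-16d. Library medians of the parent's share were 89.5% to 89.7% in mES and 88.0% to 89.8% at day 10 of RA/CHIR. For Rps3a1 the share was 3.67% in mES, 2.28% at day 10 of RA/CHIR and 2.52% in RA-16d. Coding genes with such a copy were called lower in 17.3% and higher in 8.09% of 816, against 9.92% and 17.5% of the 10658 without. Of 41 families whose parent was called lower, 10 had a family difference under 1. Rpl29, Rps3a1, Ahcy, Rpl34, Btg3 and Rpl3, among the 15 lowest named genes, and Dppa5a, Tma7-ps and Gpx2, among the 15 highest, belong here. Without these genes and their copies, 3197 of 11344 genes were called, 2045 higher and 1152 lower. A difference in read assignment and a difference in expression cannot be told apart for such genes.

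Chromosome 14 stood apart. Its 447 tested genes had a median difference of -0.63, and 155 (34.7%) were lower, against medians of -0.05 to 0.23 and lower shares of 7.79% to 12% on 16 other autosomes. Chromosomes 16 and 19 had medians of -0.31 and -0.32. Other groups showed the same offset from XEN on chromosome 14, at -0.63 to -0.59 in mES libraries, -0.65 to -0.62 in RA-16d and -0.75 to -0.73 in SMC. Leaving chromosome 14 out gave 3326 calls, 2125 higher and 1201 lower. Named genes on it are Ptk2b, Gata4, Sox7, Klf5, Nid2, Vcl, Loxl2, Fdft1, Egr3, Rnf17, Bmp4 and Bmp1, and of these Klf5, Egr3 and Rnf17 were higher. Chromosome and line cannot be told apart.

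**Figure D5:**
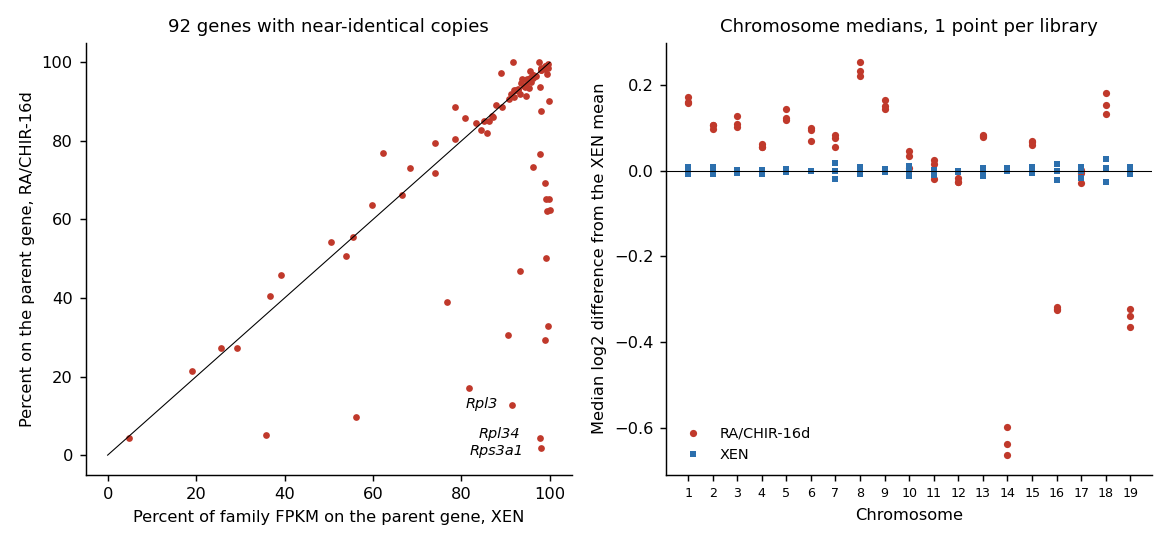
Left, percent of a family's summed FPKM on the parent gene in XEN and in RA/CHIR-16d for 92 families with near-identical copies, with the line of equality. Right, the median log2 difference of each chromosome's tested genes from the XEN mean, with 1 red circle per RA/CHIR-16d library and 1 blue square per XEN library. Rps3a1, Rpl34 and Rpl3 lie far below the line, and chromosome 14 lies lowest, near -0.63.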

How the data were processed

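The authors deposited 1 table of FPKM values for all 33 libraries. Per the submitters' processing notes, reads were handled with Trimmomatic 0.33, HISAT2 2.0.4, Cufflinks and Cuffdiff on GRCm38; the counting settings are not given in the sources used here. Whole reads could not be recovered from the low values, and the FPKM values were tested as log2(FPKM + 1).

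Columns were assigned to samples by their titles, and genes to chromosomes by identifier through GENCODE M21 (52484 of 52631 found). Genes under 1 FPKM in more than 3 of the 6 libraries, and those on X or Y, were left out. A group-means model of 33 libraries in 11 groups was fitted with limma 3.58.1 in R 4.3.3 (trended prior, 22 residual degrees of freedom, 2-sided, Benjamini-Hochberg adjustment over all genes tested), and the procedure was tested on simulated data. Calls needed an adjusted p under 0.05 and a log2 difference of at least 1. Near-identical copies came from alignment of GENCODE M21 transcripts, and the promoter sequence from RefSeq.

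Alternatives were TMM-type scaling, quantile normalization, a pseudocount of 0.1, no filter, a mean of at least 5 FPKM, the 6 libraries alone, no variance trend, a replicate block, X and Y kept, and each replicate left out. Leaving out copies or chromosome 14 was added after seeing the data. Genes were named by rule: the 15 highest and 15 lowest called genes whose libraries did not overlap (higher group averaging 5 FPKM or more), fixed identity genes, up to 4 called members per list and direction, and the 5 nearest to no difference above 100 FPKM. Genes named outside this rule, such as members of a pathway that were not called, were chosen after their values were seen. Members and lists were chosen with earlier results of these data known. A few genes are not reported here.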

Additional observations from a re-analysis of the deposited data

How the results depend on the processing

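Among named genes that were tested, 235 of 250 kept their call under all alternatives in which they were tested. None changed direction among those with an adjusted p under 0.05 in the main fit or a call under the alternative. A change of sign in other genes, such as those near no difference, was not counted. With a mean of at least 5 FPKM, 197 of the 250 could be compared. The changing 15 were Sox17, Sox7, Sparc, Tagln, Vim, Fzd5, Plod1, Dsp, Zeb1, Serpine2, Fdps, Oasl2, Fgfr2, Plet1 and Nes. With a mean of at least 5 FPKM as the filter, fewer genes entered, and 2083 were called (1023 higher), with 1946, 1819, 1960, 2568 and 3244 for RA/CHIR-4d, 7d, 10d, RA-16d and mES against XEN. With the adjusted p alone and no minimum difference, 9160 genes were called, 4873 higher and 4287 lower, and 8972, 8524, 8810, 9777 and 10232 in those other comparisons. With no filter, 16765 genes had an interval within 1. Leaving out each replicate gave 3498 to 3586 calls, 2174 to 2193 higher and 1308 to 1398 lower. Same-numbered libraries showed no clear shared deviation (r = -0.019, 0.070 and -0.015), and differently numbered ones lay between -0.069 and 0.084. With 3 libraries per group these values cannot exclude a small shared effect, so pairing by number is not known. A replicate block gave 3531 calls. Scaling moved the median of all genes by less than 0.1. Depth is unknown, so the precision of low values cannot be given beyond the spread of 3 libraries.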
